A study of Mus musculus with 6 samples.

Results

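The core circadian clock genes are a set of 10 genes whose proteins form the feedback loops that give cells a daily rhythm: *Arntl* (also named *Bmal1*), *Clock*, *Per1*, *Per2*, *Per3*, *Cry1*, *Cry2*, *Nr1d1*, *Nr1d2* and *Dbp*. They were taken by name from a gene array of whole mouse lung, through the Entrez ID of each probe set, and all 10 were found among 19938 genes with a probe set of a single gene symbol. Each of the 10 had exactly 1 such probe set. The *Tnrc6a* null embryos were homozygous for a gene trap that places a lacZ reporter inside *Tnrc6a* (also called GW182), and the controls were WT embryos, with 3 lungs of each genotype at E18.5 and 1 embryo on each array. Both genotypes were on a C57Bl/6 background, the trap line having been made on a mixed background and then backcrossed, and the mutation was present in the whole embryo and not in a chosen cell type. The arrays were Affymetrix Mouse Gene 1.0 ST, and the values are processed signals that the labels describe as log2. That base could not be checked from the values, so every change is a difference in deposited log units (*Tnrc6a* null minus WT), without conversion to folds. The sources used here do not give the hour of the day at which lungs were collected.

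In mammalian cells ARNTL and CLOCK bind as a dimer to short DNA elements named E-boxes and switch on the *Per*, *Cry*, *Nr1d* and *Dbp* genes. PER and CRY proteins return to the nucleus and inhibit that dimer, whereas NR1D1 and NR1D2 (REV-ERB alpha and beta) repress *Arntl* through elements that they share with the activating ROR receptors. DBP is an output factor that acts on D-boxes together with its relatives TEF and HLF. In adult mouse lung these loops are known to run strongly in club cells of the airways.

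The elements themselves can be read in the promoters of several of these genes, and they are shown because the loops are described by them. RefSeq promoter windows of build GRCm38.p6, reaching from 250 bases before to 50 bases after each transcript start, were held for 9 of the 10 genes (all but *Per2*), with 13 windows in all. They were searched on both strands for the E-box CACGTG, the D-box TTATGNAA and the ROR and REV-ERB element ANTNGGTCA. These motifs do not overlap each other in the stretches shown, where capitals mark the motif and positions count from the transcript start.
*Per1* E-box, chr11:69098768-69098803, plus strand, motif at -166 to -161: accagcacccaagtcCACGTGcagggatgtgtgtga
*Per1* D-box, chr11:69098910-69098947, plus strand, motif at -24 to -17: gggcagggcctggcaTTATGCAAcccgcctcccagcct
*Per3* first D-box, chr4:151044848-151044885, minus strand, motif at -205 to -198: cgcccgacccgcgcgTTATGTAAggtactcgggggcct
*Per3* second D-box, chr4:151044801-151044838, minus strand, motif at -158 to -151: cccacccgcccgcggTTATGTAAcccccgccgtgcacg
*Cry1* E-box, chr10:85185094-85185129, minus strand, motif at -60 to -55: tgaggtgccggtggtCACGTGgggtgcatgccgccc
*Arntl* ROR and REV-ERB element, chr7:113207529-113207557, plus strand, motif at 29 to 37: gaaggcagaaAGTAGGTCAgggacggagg

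An E-box stood in 2 of the 13 windows, a D-box in 2 and the ROR and REV-ERB element in 1, each in a window of a different gene for a given motif. Over all 32851 windows of this length the shares were 7.15% for the E-box, 3.38% for the D-box and 2.24% for the ROR and REV-ERB element. The cAMP response element TGACGTCA and the glucocorticoid response element, searched likewise, had no match in the windows of the 9 genes and stood in 1.79% and 0.475% of all windows. A match is only a run of letters, and elements outside these windows were not searched.

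None of the core clock genes differed between *Tnrc6a* null and WT lungs beyond the spread of the lungs. At an adjusted p of 0.05 (limma with Benjamini-Hochberg adjustment over all genes) 0 of the 10 were called, against 0.00502% of all genes. At an unadjusted p under 0.05 there were 0 of the 10 as well, against 5.42% of all genes (2.96% lower and 2.46% higher). The differences ran from -0.15 for *Arntl* to 0.02 for *Per1*, and the adjusted p from 0.892 for *Arntl* to 0.978 for *Per1* and *Cry1*. The labels were checked on the targeted gene, since *Tnrc6a* stood at 5.45, 5.04 and 5.40 in the null lungs and at 7.38, 7.13 and 7.18 in the WT lungs (difference -1.93, standard error 0.128, adjusted p = 0.00312 from limma). It was the only gene past the adjusted threshold, and it missed it without WT replicate 3 (adjusted p = 0.0552). Nothing in the labels says which embryos shared a litter, and the number of arrays limits the precision.

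**Figure D1:**
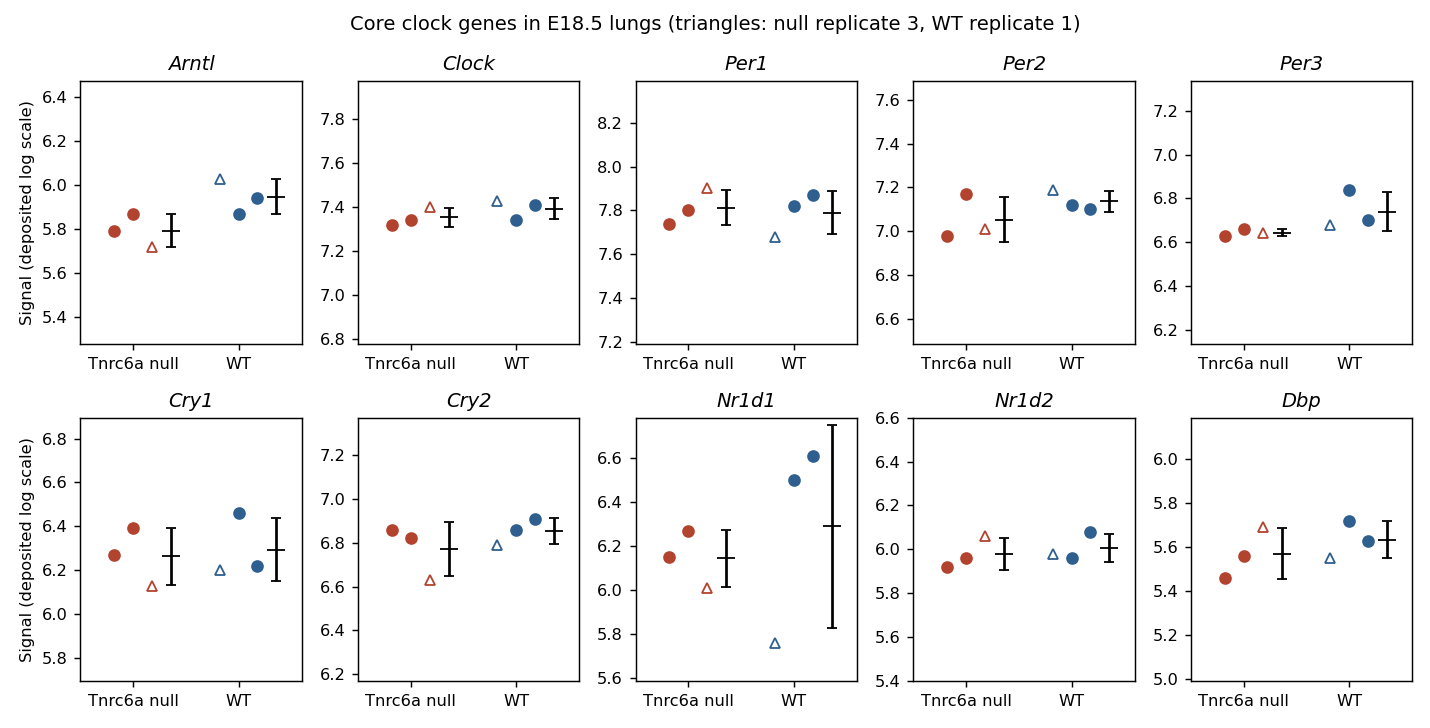
Signal of the 10 core clock genes in E18.5 lungs on the deposited log scale, with 1 point for each lung, bars for the mean and SD of 3 lungs, and the same span on every vertical axis. Triangles are null replicate 3 and WT replicate 1; the genotypes overlap or touch in 9 genes, and in *Per3* the null lungs at 6.63 to 6.66 lie below the WT lungs at 6.68 to 6.84.

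A whole lung holds many cell types, and in such a bulk sample fewer cells of a type and less RNA per cell cannot be told apart. Defining lung markers were bright: the surfactant gene *Sftpc* stood at 11.66 to 11.82 in the null lungs and 11.64 to 11.82 in the WT lungs, and the club cell gene *Scgb1a1* at 9.83 to 9.97 in the null lungs and 9.88 or above in the WT lungs. Other club cell genes, picked after their values were seen, stood lower on average in null lungs. *Cyp2f2* was at 10.33, 10.41 and 10.05 in the null lungs and 10.51, 10.59 and 10.66 in the WT lungs. Its genotypes did not overlap (difference -0.32, unadjusted p = 0.0116, adjusted p = 0.89 from limma). *Scgb3a2* was at 7.17, 7.05 and 6.38 in the null lungs and 7.11, 7.22 and 7.10 in the WT lungs. Its genotypes overlapped, and null replicate 3 was by far the lowest lung (difference -0.28, adjusted p = 0.897 from limma). The part of club cell content in the clock values was not tested. Null replicate 3 and WT replicate 1 resembled each other across all genes (correlation 0.992, where pairs of lungs gave 0.979 to 0.993), and no shared batch is named for them. Of the proliferation genes, 15 of 15 measured were higher on average in null lungs, with a median difference of 0.257. Over all genes 49.8% were lower, with a median difference of 0. At an unadjusted p under 0.05 (limma) 3 of the 15 were higher, against 2.46% of all genes, and 0 passed the adjusted threshold. As a mean the list was highest in null replicate 3 and WT replicate 1, though *Cdk1*, *Mybl2* and *Birc5* were highest in null replicate 1. The mean of 15 measured genes stood 0.379 above the mean of the 6 lungs in null replicate 3 and 0.261 above it in WT replicate 1. The liver gene *Alb* was highest in null replicate 3, at 7.61, against 4.78 to 6.26 in the other lungs (5.09 in WT replicate 1). Their part in any clock result was not tested. Without null replicate 3 and WT replicate 1 all 10 core clock genes were lower on average, with a median difference of -0.075. Of genes of like signal 64.1% were lower in that setting, with a median of -0.045. Values of single genes without both lungs are given for *Nr1d1*, *Per1*, *Nr1d2* and *Dbp*.

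The activators head the loop. *Arntl* had signals of 5.79, 5.87 and 5.72 in the null lungs and 6.03, 5.87 and 5.94 in the WT lungs. The genotypes touched at 5.87, and the other null lungs lay below every WT lung. The difference was -0.15 (95% interval -0.36 to 0.06), and its adjusted p of 0.892 (limma, unadjusted 0.133) was the smallest among the 10 genes. In its partner *Clock*, which encodes the histone acetyltransferase of the dimer, the null lungs stood at 7.32, 7.34 and 7.40 and the WT lungs at 7.43, 7.34 and 7.41. These lungs lay within 0.11 of each other, and the difference was -0.04 (95% interval -0.21 to 0.13, adjusted p = 0.954). Of the 1377 genes within 0.25 of the mean signal of *Clock*, 5.16% had a smaller SD within genotypes.

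The *Per* genes, whose proteins are the inhibitors that build up and decay each day, differed by 0.10 or less. *Per1*, which carries both an E-box and a D-box above and also answers acutely to hormones and cAMP, stood at 7.74, 7.80 and 7.90 in the null lungs and at 7.68, 7.82 and 7.87 in the WT lungs. Its genotypes overlapped throughout, with a difference of 0.02 (95% interval -0.17 to 0.21), the only one of the 10 above 0, though at -0.013 with array medians centred and -0.03 with array weights. *Per2* stood at 6.98, 7.17 and 7.01 in the null lungs against 7.19, 7.12 and 7.10 in the WT lungs, with a difference of -0.08 (95% interval -0.27 to 0.11). Null replicate 2 reached into the WT range, while the remaining null lungs lay below it. *Per3*, with its pair of D-boxes, had null lungs at 6.63, 6.66 and 6.64 and WT lungs at 6.68, 6.84 and 6.70. It was the only core clock gene whose genotypes did not overlap, by 0.02 between the nearest lungs (10.2% of all genes did not overlap, 5.51% lower and 4.67% higher in null lungs). The difference for *Per3* was -0.10 (95% interval -0.28 to 0.09, adjusted p = 0.901), and an exact two-sided permutation test gave p = 0.1, which is as low as such a test can go with 3 lungs a genotype. Without WT replicate 2 the difference was -0.047.

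The *Cry* genes encode the partners of PER that block the ARNTL and CLOCK dimer. *Cry1* had signals of 6.27, 6.39 and 6.13 in the null lungs and 6.20, 6.46 and 6.22 in the WT lungs, and *Cry2* of 6.86, 6.82 and 6.63 in the null lungs and 6.79, 6.86 and 6.91 in the WT lungs. In both genes the lowest null lung was replicate 3 and the lowest WT lung replicate 1, and these lay below the other 4 lungs. The difference was -0.03 for *Cry1* (95% interval -0.28 to 0.22, adjusted p = 0.978 from limma). It was -0.08 for *Cry2* (95% interval -0.29 to 0.12, adjusted p = 0.928 from limma). Without null replicate 3 the difference was 0.037 for *Cry1* and -0.013 for *Cry2*.

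*Nr1d1*, the REV-ERB alpha gene that represses *Arntl*, varied most. Its signal was 6.15, 6.27 and 6.01 in the null lungs and 5.76, 6.50 and 6.61 in the WT lungs. WT replicate 1 lay below all 3 null lungs and the other WT lungs above all of them, so that the SD was 0.13 in null lungs and 0.46 in WT lungs (n = 3 each). Of the 1920 genes within 0.25 of its mean signal, 96.2% had a smaller SD within genotypes. The difference of -0.15 (95% interval -0.61 to 0.32, adjusted p = 0.939 from limma) depended on single WT lungs. Without WT replicate 1 it was -0.412, with an adjusted p of 0.502 (limma, unadjusted 0.00517), and without both WT replicate 1 and null replicate 3 it was -0.345 (adjusted p = 0.139 from limma). Without WT replicate 3 it was 0.013.

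*Nr1d2*, the REV-ERB beta gene, did not share this spread. The null lungs stood at 5.92, 5.96 and 6.06 and the WT lungs at 5.98, 5.96 and 6.08, within 0.16 of each other, and the difference was -0.03 (95% interval -0.23 to 0.18, adjusted p = 0.977 from limma). *Dbp*, the output factor, had signals of 5.46, 5.56 and 5.69 in the null lungs and 5.55, 5.72 and 5.63 in the WT lungs. The genotypes overlapped, with a difference of -0.06 (95% interval -0.30 to 0.17, adjusted p = 0.950 from limma). Without single lungs it ran from -0.123 without null replicate 3 to -0.008 without null replicate 1. Without both WT replicate 1 and null replicate 3 the difference was -0.165 for *Dbp* and -0.08 for *Nr1d2*.

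**Figure D2:**
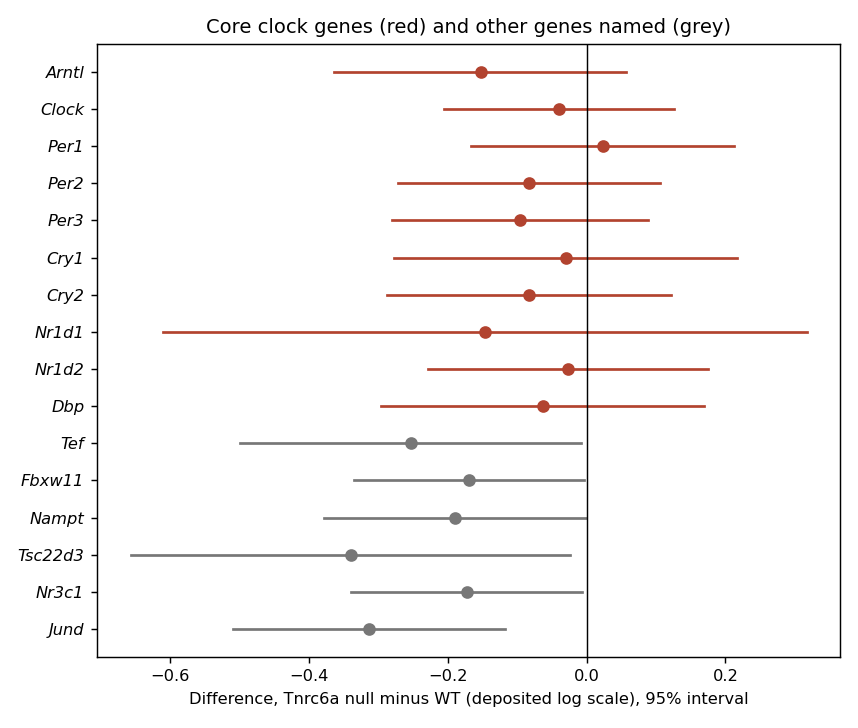
Differences in deposited log units (*Tnrc6a* null minus WT), with limma's 95% interval, for the 10 core clock genes in red and 6 other named genes in grey. The red intervals all cover 0, with differences from -0.15 for *Arntl* to 0.02 for *Per1*. The grey genes were named for an unadjusted p under 0.05, so that choice alone makes their intervals exclude 0. All of the grey differences were negative, and 0 of these 16 genes passed the adjusted threshold.

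Most core clock genes stood a little lower in null lungs, as did most genes of like signal. Of the 10 genes, 9 were lower on average, with a median difference of -0.0733. Over all 19938 genes 49.8% were lower, with a median difference of 0. The deposited values shift with signal, however: the median difference was 0.153 in the dimmest of 10 equal bins of genes and -0.0633 in the brightest, and among the 7460 genes between the signals of *Dbp* and *Per1* 64.6% were lower, with a median of -0.0433. After quantile normalization over all probe sets 8 of the 10 core clock genes were lower (median -0.0506), and after the same normalization over probe sets with 1 symbol 6 of the 10 were (median -0.0338), as were 49.7% of the genes of like signal.

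Between lungs, 8 of the 10 genes were steadier than most genes of like signal. The SD within genotypes ran from 0.0445 for *Clock* to 0.138 for *Cry1*, with *Nr1d1* apart at 0.34. Among genes within 0.25 of the same signal, the share with a smaller SD was 39% or less for 8 genes, 55.6% for *Cry1* and 96.2% for *Nr1d1*. *Arntl* and its repressor *Nr1d1* did not stand in opposite order in every lung. WT replicate 1 had the highest *Arntl* and the lowest *Nr1d1* of the 6 lungs, but null replicate 3 had the lowest *Arntl* and the second-lowest *Nr1d1*.

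**Figure D3:**
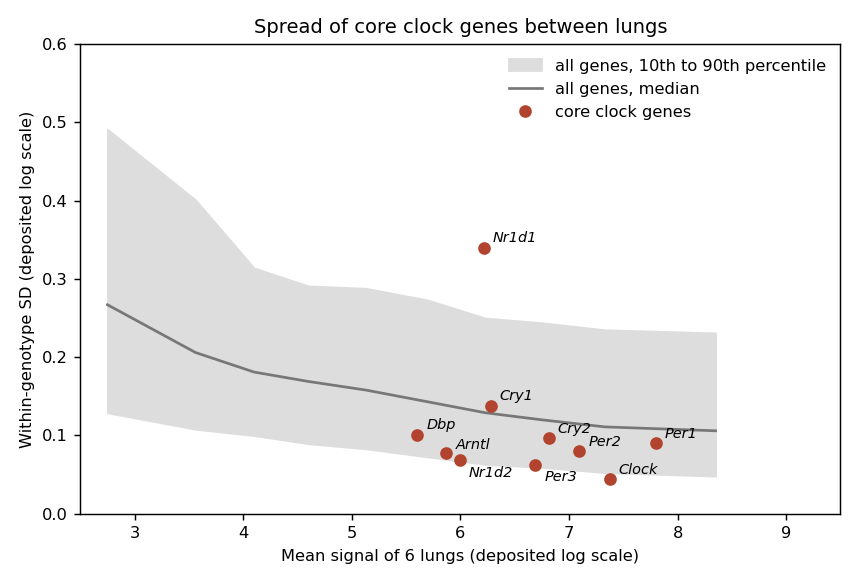
SD within genotypes against mean signal, both on the deposited log scale, for the 10 core clock genes (red points) over all genes (grey band from the 10th to the 90th percentile in 10 bins of signal, grey line for the median). *Nr1d1* lies above the band at 0.34, and *Clock* lies just below the band at 0.0445.

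Other factors of the loops also showed 0 genes past the adjusted threshold. Of 10 measured factors among 12 listed, 7 were lower and 3 higher in null lungs on average, and the median difference was -0.01. *Tef*, a relative of *Dbp* that acts on D-boxes, was the only factor at an unadjusted p under 0.05 (0.0447). It stood at 6.85, 7.25 and 7.06 in the null lungs against 7.24, 7.37 and 7.31 in the WT lungs, a difference of -0.25 (95% interval -0.50 to -0.0075, adjusted p = 0.89 from limma). Null replicate 2 overlapped the WT lungs. Without null replicate 1 the difference was -0.152 (limma, unadjusted p = 0.176, adjusted p = 0.98). *Hlf*, the third of these relatives, had a difference of -0.01 (95% interval -0.36 to 0.35). *Rora*, the activating receptor that competes with REV-ERB proteins, stood at 5.91, 5.96 and 6.22 in the null lungs and at 6.30, 6.14 and 6.13 in the WT lungs, with overlap (difference -0.16, adjusted p = 0.897 from limma). *Arntl2*, a close relative of *Arntl*, stood at 4.56, 4.45 and 4.78 in the null lungs and at 4.95, 4.69 and 4.54 in the WT lungs, again with overlap. The E-box repressor gene *Bhlhe40* lay within 6.12 to 6.34 in all lungs. These last 4 genes were picked after their values were seen.

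*Ciart*, which encodes a repressor of the ARNTL and CLOCK dimer and was picked after its values were seen, varied most among the 20 core and other clock factors. It has 3 E-boxes in its promoter window, more than any of the 9 core clock genes with a window, and they are shown for that reason, with capitals on the motif.
*Ciart* first E-box, chr3:95882324-95882359, minus strand, motif at -116 to -111: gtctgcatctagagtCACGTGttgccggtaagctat
*Ciart* other E-boxes, chr3:95882252-95882301, minus strand, motifs between -58 and -39: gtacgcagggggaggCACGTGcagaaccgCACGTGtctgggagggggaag

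The *Ciart* signal was 4.95, 5.0 and 5.99 in the null lungs and 5.92, 4.75 and 5.19 in the WT lungs. Null replicate 3 and WT replicate 1 were both high, and the remaining lungs of either genotype lay at 5.19 or below. The difference between genotypes was 0.03 (95% interval -0.74 to 0.80, adjusted p = 0.996 from limma). Among the 1778 genes of like signal 99.2% had a smaller SD within genotypes. *Ciart* has more than 1 probe set, and its lung values and spread are those of the brightest only. With the mean of its probe sets the difference was 0.135 (unadjusted p = 0.524 from limma). *Bhlhe41*, which encodes another E-box repressor, was lowest of its genotype in the same lungs, at 3.98, 4.28 and 3.62 in the null lungs and 3.75, 4.57 and 4.20 in the WT lungs. *Hlf* was low there too, at 5.62 in null replicate 3 and 5.40 in WT replicate 1, against 5.72 to 5.94 in the other lungs.

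The lungs set apart in this way had a correlation of 0.992 across all genes, where pairs of lungs gave 0.979 to 0.993. Null replicate 3 and WT replicate 1 lay beyond the other 4 lungs, on the same side, in 7 of the 10 other clock factors and in 3 of the 10 core clock genes (*Cry1*, *Cry2* and *Nr1d1*, all low). Over all genes this held for 32.3%, so the share of the core clock genes was close to that of any genes. Those 7 factors were *Arntl2*, *Rora* and *Ciart* on the high side and *Hlf*, *Nfil3*, *Bhlhe41* and *Timeless* on the low side. Proliferation genes were highest in these lungs and macrophage markers lowest, with means of the macrophage list at -0.475 in null replicate 3 and -0.116 in WT replicate 1, relative to the mean of the 6 lungs, against 0.0336 to 0.275 in the other lungs. Liver markers did not go with both, at 0.674 in null replicate 3 and -0.332 in WT replicate 1. The part of proliferation or macrophage content in these values was not tested.

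**Figure D4:**
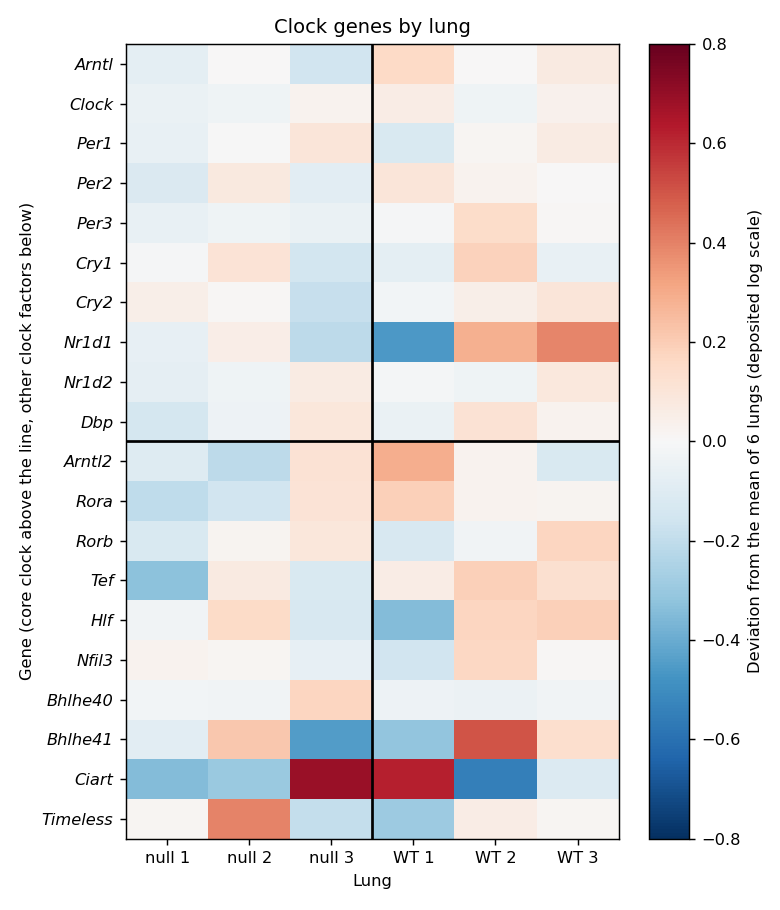
Deviation of each lung from the mean of 6 lungs on the deposited log scale, with red for higher and blue for lower, for the 10 core clock genes (above the line) and 10 other clock factors (below it), with null lungs left of WT lungs. *Ciart* is high and *Nr1d1*, *Hlf* and *Bhlhe41* are low in null replicate 3 and WT replicate 1, while the core clock genes other than *Nr1d1* stay within 0.33 between lowest and highest lung.

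Enzymes that modify clock proteins showed no gene past the adjusted threshold either. The list gave 10 measured genes among 12, with 8 lower and 2 higher in null lungs and a median difference of -0.0917. Among genes between the signals of *Dbp* and *Per1*, a range that some of these genes exceed, 64.6% were lower, with a median of -0.0433. In the brightest of 10 equal bins of genes the median was -0.0633. The genotypes did not overlap in 2 of the 10, both lower, against 5.51% of all genes. *Fbxw11*, which encodes a ubiquitin ligase subunit that marks PER proteins for destruction, stood at 7.18, 7.19 and 7.14 in the null lungs and at 7.28, 7.38 and 7.36 in the WT lungs. The genotypes did not overlap, with a difference of -0.17 (95% interval -0.34 to -0.0036, unadjusted p = 0.0462, adjusted p = 0.89 from limma). *Csnk1e*, a casein kinase gene picked after its values were seen, likewise had null lungs at 8.84, 8.95 and 8.88. Its WT lungs stood at 9.02, 9.02 and 9.06 (difference -0.14, adjusted p = 0.89 from limma). The other measured modifiers overlapped between genotypes. Among them, the casein kinase gene *Csnk1d* had a difference of -0.09 (adjusted p = 0.905 from limma). *Btrc* was higher on average in null lungs (difference 0.04, adjusted p = 0.967 from limma).

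Among output genes, 6 were measured of 7 listed, 4 were lower and 2 higher, and 0 passed the adjusted threshold. *Nampt*, a clock-driven enzyme of NAD synthesis, had signals of 6.93, 7.05 and 7.08 in the null lungs and 7.27, 7.12 and 7.24 in the WT lungs, without overlap (difference -0.19, unadjusted p = 0.0486, adjusted p = 0.89 from limma). *Tsc22d3*, which encodes the glucocorticoid-induced leucine zipper and stands in the list of glucocorticoid response genes too, stood at 6.97, 7.23 and 6.76 in the null lungs and at 7.10, 7.45 and 7.43 in the WT lungs, with overlap (difference -0.34, unadjusted p = 0.0381, adjusted p = 0.89 from limma).

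Glucocorticoids are a hormonal signal that sets peripheral clocks and acts on *Per1*, so genes of that response were set beside the clock. All 8 of these genes were lower on average, with a median difference of -0.182 and 0 past the adjusted threshold. Among genes between the signals of *Dbp* and *Per1*, a range that some of the glucocorticoid genes exceed, 64.6% were lower. Nor was this particular to them: all measured alveolar type 1, macrophage and heart markers were lower too. All measured proliferation genes and liver markers were higher. *Nr3c1*, the glucocorticoid receptor gene, stood at 7.53, 7.48 and 7.56 in the null lungs and at 7.75, 7.71 and 7.63 in the WT lungs, without overlap (difference -0.17, unadjusted p = 0.0433, adjusted p = 0.89 from limma). *Klf9*, a hormone-induced factor picked after its values were seen, had the largest difference of the 8, at 7.31, 7.61 and 6.87 in the null lungs against 7.39, 7.82 and 7.79 in the WT lungs, with overlap (difference -0.40, adjusted p = 0.89 from limma). *Per1* had a difference of 0.02. Taken as deviations from the 6-lung average, the 8 genes had means of -0.138, 0.0517 and -0.231 in the null lungs. In the WT lungs these means were -0.0146, 0.199 and 0.133, so that the genotypes overlapped. Null replicate 3 was the lowest lung, and the mean of the proliferation genes was highest there, at 0.379. WT replicate 1, with a proliferation mean of 0.261, stood higher in the glucocorticoid genes than null replicate 1, with a proliferation mean of 0.163. The part of proliferation in these values was not tested.

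The list of immediate early genes, many of which like *Per1* answer acutely to handling and cAMP, went both ways. Among 15 genes, 8 were lower and 7 higher in null lungs, with a median difference of -0.04 and 0 past the adjusted threshold. *Jund*, a member of the AP-1 factors, was the only gene of the 15 at an unadjusted p under 0.05, where 5.42% of all genes were. It stood at 6.70, 6.88 and 6.68 in the null lungs against 7.03, 7.13 and 7.04 in the WT lungs. Its genotypes did not overlap (difference -0.31, unadjusted p = 0.00586, adjusted p = 0.89 from limma). The difference was -0.07 for *Fos* and 0.18 for *Egr1*. *Fos*, picked after its values were seen, was lowest in the same lungs as *Nr1d1*, at 4.93 in null replicate 3 and 4.55 in WT replicate 1, against 5.0 to 5.48 in the other lungs.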

How the data were processed

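Total RNA of single embryonic lungs was hybridised to Affymetrix Mouse Gene 1.0 ST arrays. The authors deposited 1 processed value per lung for each of 35045 probe sets, described in the labels as log2. MAS5 is named in the submitters' processing notes, and its version and settings are not known here. Values ran from 0.29 to 12.49, with array medians of 4.98 to 5.03. Signal over background could not be assessed without scanner files.

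Of the probe sets, 21789 had 1 gene symbol, of which 21698 were matched through their Entrez IDs to the GRCm38.p6 annotation and took its symbol. The brightest probe set represented each of 19938 genes (999 genes had several). Moderated tests used limma 3.58.1 under R 4.3.3, with a trended prior, Benjamini-Hochberg adjustment, a threshold of 0.05 and 95% intervals. These tests judge a difference against the spread between lungs, moderated by the prior, and take the lungs as independent. Exact permutation tests of single genes and other steps used Python 3.11.15, scipy 1.17.1, pandas 2.3.3 and matplotlib 3.10.9. The fit was run on simulated data, drawn as independent normal values with the fitted variances. Those data held no resemblance between single lungs and no shift with signal, so they do not cover these features of the real lungs.

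The members and lists were chosen with earlier results of these data known. The rule named every member, and from the lists of other factors, modifiers, outputs, glucocorticoid response and immediate early genes those at an unadjusted p under 0.05. Marker lists, none with a gene past the adjusted threshold, had median differences of -0.223 (alveolar type 1), -0.03 (alveolar type 2), -0.0633 (airway epithelium), -0.203 (endothelium), -0.09 (mesenchyme), -0.252 (macrophage), 0.143 (erythroid), -0.123 (heart), 0.163 (liver) and 0.0367 (thymus). Alternatives changed the normalization (quantile or median centring), left out dim genes, averaged probe sets, changed the prior (no trend, or robust), weighted arrays, blocked on replicate number, ran the methods' t-test, or left out single lungs. Chosen after seeing the data were both normalizations over probe sets with 1 symbol, a block shared by WT replicate 1 and null replicate 3, and leaving out both of these lungs.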

Additional observations from a re-analysis of the deposited data

How the results depend on the processing

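No core clock gene passed the adjusted threshold under any of the 19 alternatives (smallest adjusted p = 0.139 from limma, for *Nr1d1* without WT replicate 1 and null replicate 3). Of the 190 differences, 176 kept their direction. That count includes settings in which these differences could not change. Those were the changes of prior, the t-test, both blocks, leaving out dim genes and averaging probe sets. All genes passing numbered 1 with all lungs, 0 to 1 without single lungs, 0 with the methods' t-test (1102 genes at an unadjusted p under 0.05), 2 with array weights, 56 with a block shared by WT replicate 1 and null replicate 3, and 23 without both of them. These last settings, and normalization over probe sets with 1 symbol, were chosen after seeing the data. Core clock genes at an unadjusted p under 0.05 numbered 0 to 1 without single lungs and 1 without both lungs, *Nr1d1* each time. The direction turned in some settings for 5 core clock genes and for *Ciart* and *Hlf*. *Clock* stood at 0.009 and 0.017 with quantile normalization over all probe sets and over those with 1 symbol. *Per1* stood at -0.013 with median centring, -0.03 with array weights, -0.075 without both lungs and -0.032 to 0.063 without single lungs. *Cry1* stood at 0.005 and *Nr1d2* at 0.006 with quantile normalization over probe sets with 1 symbol, and at -0.093 to 0.053 and -0.067 to 0.01 without single lungs. *Nr1d1* ran from -0.412 to 0.013 without single lungs. *Ciart* stood at -0.01 with median centring and at -0.312 to 0.343 without single lungs, and *Hlf* at 0.018 and 0.013 with quantile normalization and centring over probe sets with 1 symbol and at -0.183 to 0.087 without single lungs. Lungs with the same number deviated together for replicate 2 only (correlation 0.361, against -0.295 for replicate 1 and -0.162 for replicate 3), so the numbers were not taken as pairs, and the replicate block gave 1 gene past the threshold (822 at an unadjusted p under 0.05) and left all core clock genes above it (*Arntl* at -0.153, adjusted p = 0.95). Without single lungs *Clock* ran from -0.067 to -0.022, *Per2* from -0.142 to -0.047 and *Cry2* from -0.128 to -0.013. With quantile normalization over all probe sets the unadjusted p (limma) was 0.0935 for *Tef*, 0.123 for *Fbxw11*, 0.113 for *Nampt*, 0.0587 for *Tsc22d3* and 0.123 for *Nr3c1*, and without the trended prior these 5 genes were at 0.0611 to 0.082. Signal over background was not measured.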
